A study of Mus musculus with 8 samples.

Results

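The genes described here are 9 enzymes of the methionine cycle and its outlets, Mat1a, Gnmt, Ahcy, Bhmt, Bhmt2, Cbs, Cth, Pemt and Nnmt. They were chosen by name from the mouse genes of the table, and all 9 symbols were among its 14317 mouse genes. The livers came from female mice kept on a western diet (WD) for 8.5 weeks, 4 with an empty vehicle pellet (Con-Veh) and 4 with a 10 mm pellet of dihydrotestosterone (DHT), an androgen that is not converted to oestrogen (Con-DHT). Pellets were implanted at 7 weeks of age and the animals were fasted overnight before tissue was taken. The labels give the genotype of both groups as WT. Each liver gave 1 library of total RNA. The comparison asks which of these transcripts differed in the livers of DHT treated females on this diet.

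In the methionine cycle, methionine is turned into S-adenosylmethionine (SAM), the methyl donor of most methylation reactions, and the product of methyl transfer is hydrolysed to homocysteine. Homocysteine is either remethylated to methionine, in liver largely with betaine, or passed to cysteine by transsulfuration. Hepatic phosphatidylcholine comes from 2 routes, the CDP-choline route and the methylation of phosphatidylethanolamine by PEMT, which is a large consumer of SAM and supplies phospholipid for lipoprotein particles.

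A single member, Pemt, passed the threshold, with a lower level in Con-DHT. Its limma adjusted p of 0.046 was close to the threshold. The call held in 1 of 8 fits that left out 1 library and in 6 of 14 other settings. Transcripts of the methionine cycle itself (Mat1a, Gnmt, Ahcy) and of transsulfuration (Cbs, Cth) overlapped between the groups. Bhmt was higher and Nnmt lower in 3 of the 4 Con-DHT livers than in every Con-Veh liver, and neither passed the threshold. Outside the members, 7 genes of phosphatidylcholine metabolism passed the threshold, with Chka, Cept1 and Lcat lower and Chpt1, Pctp, Gpcpd1 and Lpcat4 higher in Con-DHT. They were 3 of 16 genes of CDP-choline and CDP-ethanolamine synthesis and 4 of 16 of remodelling, transfer and breakdown. Of all tested genes 7.21% passed. The lists were chosen with earlier results of these data known. With libraries scaled by the spike-in RNA, only Gpcpd1 of these 7 passed, and Pemt did not. The spike-in share of reads ranged from 1.68% to 3.61% in Con-Veh and from 2.22% to 2.75% in Con-DHT. Under that scaling this spread enters the values of every gene.

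Values are normalized read counts (reads on a gene divided by the size factor of the library), and groups are given as mean ± SD with n = 4 livers. Over the 8 libraries, reads on genes summed to between 13123962 and 17815944. Differences are log2 fold changes of Con-DHT over Con-Veh on the log2(value + 1) scale, tested with limma over 14312 genes with Benjamini-Hochberg adjustment and called at an adjusted p of at most 0.05. Of all tested genes, 1032 were called, which is 7.21%, with 4.6% higher and 2.61% lower in Con-DHT. All 7 hepatocyte markers were in the table, and limma called 0 of them (0 at an unadjusted p of at most 0.05; edgeR and DESeq2 called 0 as well, with 1 and 2 at that unadjusted p). Summed Kupffer cell markers were lower in Con-DHT without overlap, at 6347 to 7920 in Con-Veh and 4276 to 5736 in Con-DHT, with 4 of the 7 genes called lower. The sums of sinusoidal endothelial markers (3679 to 4132 against 2927 to 3439, 2 of 6 called lower) did not overlap either, nor did those of the 2 lymphocyte markers in the table. Of the endothelial markers, Stab2 had the largest counts (means 1611 and 1109) and was the only 1 without overlap. Lyve1 was the other called. Clec4g and Pecam1 were lower and did not pass, and Kdr (means 526 and 530) and Ptprb (means 759 and 742) hardly differed. In whole liver RNA, fewer cells of a type and less RNA per cell cannot be told apart.

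Among the members, 1 of 9 was called, and 1 of 9 had no overlap between the groups, against 15.1% of all tested genes without overlap and 6.62% with every Con-DHT liver below every Con-Veh liver. Their median log2 fold change was -0.007, beside -0.008 over all tested genes. Of the 9 changes 4 were positive and 5 negative, and 2 members (Pemt and Nnmt) had an unadjusted p of at most 0.05 in limma, as did 23.2% of all tested genes.

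**Figure D1:**
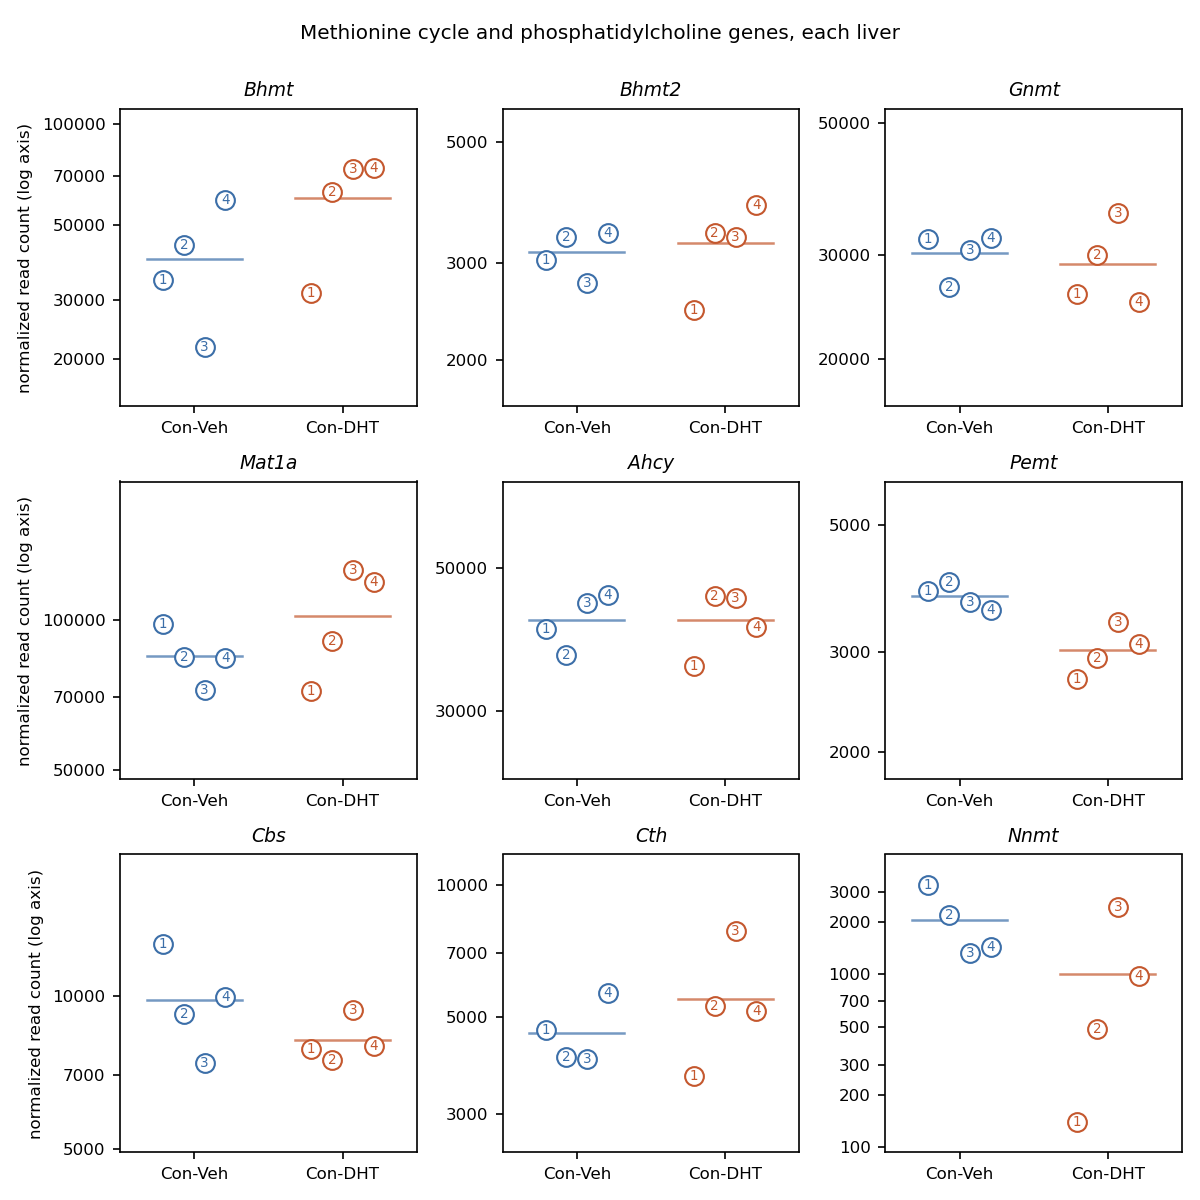
Normalized read counts (log axis, scaled separately for each gene) of the 9 members in the 4 Con-Veh and 4 Con-DHT livers. Numbers in the circles are the replicate numbers and lines are group means. Only for Pemt do all Con-DHT livers lie below all Con-Veh livers, and Nnmt in Con-DHT replicate 1 stood at 140.3.

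The levels of the members were compared per kilobase of exon (the union of all annotated exons), as a mean of the normalized count over the 8 libraries. On this scale Mat1a stood first at 26873 per kb, followed by Gnmt at 24526, Ahcy at 14798 and Bhmt at 8686. The order continued with Cth at 1807, Pemt at 1611, Bhmt2 at 1298, Cbs at 1203 and Nnmt at 975 per kb. These are abundant liver transcripts, and Mat1a and Gnmt ranked 26 and 33 among all tested genes while Nnmt ranked 685. The ranges of neighbouring genes in this order overlapped, except between Gnmt and Ahcy and between Bhmt and Cth. The order within the upper 4 and within the lower 5 depended on the length used. Per kilobase of the longest protein-coding transcript, an alternative added after the values were seen, Gnmt stood at 28578, Mat1a at 26873, Bhmt at 20086 and Ahcy at 16322. Pemt followed at 3380 per kb of this transcript, above Cth at 2779, Nnmt at 1473, Cbs at 1446 and Bhmt2 at 1298.

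Mat1a encodes the liver form of methionine adenosyltransferase, which makes SAM. Its normalized counts were 97941, 84035, 72459 and 83793 in Con-Veh replicates 1 to 4 and 71898, 90750, 125814 and 118872 in Con-DHT replicates 1 to 4. Con-DHT replicates 3 and 4 were above, and replicate 1 was below, every Con-Veh liver. The group means were 84557 ± 10400 and 101834 ± 25100, a log2 fold change of 0.24 with a 95% confidence interval from -0.23 to 0.71 (limma adjusted p = 0.54). Without Con-DHT replicates 3 and 4 the Mat1a difference was -0.06. Mat1a lies on chromosome 14 (chr14:41105035-41124412, GRCm38, plus strand).

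Gnmt, glycine N-methyltransferase, spends surplus SAM on glycine. It read 31837, 26473, 30496 and 31936 in Con-Veh and 25746, 29916, 35286 and 24937 in Con-DHT. Con-DHT replicates 1 and 4 were the lowest of the 8 livers and replicate 3 was the highest, so that the groups overlapped. The means of 30185 ± 2560 and 28971 ± 4740 differed by a log2 fold change of -0.07 (95% interval -0.37 to 0.23, limma adjusted p = 0.81). Gnmt is at chr17:46725664-46729168 (GRCm38, minus strand).

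Ahcy, adenosylhomocysteine hydrolase, removes the product that inhibits methyltransferases. Its counts were 40143, 36645, 44133 and 45375 in Con-Veh and 35228, 45191, 44935 and 40409 in Con-DHT, and 3 of the 4 Con-DHT livers fell inside the Con-Veh range. The means, 41574 ± 3970 and 41441 ± 4690, gave a log2 fold change of -0.01 (95% interval -0.30 to 0.29, limma adjusted p = 0.98). Ahcy (chr2:155059310-155074497, GRCm38, minus strand) shares 72.1% of the 100-base windows of its transcript with other annotated genes, mainly the gene Gm4737, whose count was 0.674% of that of Ahcy.

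The betaine branch returns homocysteine to methionine. Bhmt, betaine-homocysteine methyltransferase, read 34212, 43653, 21618 and 59436 in Con-Veh and 31292, 62600, 73190 and 74104 in Con-DHT. Con-DHT replicates 2, 3 and 4 were above all Con-Veh livers, and replicate 1 was below all of them but Con-Veh replicate 3. The Con-Veh livers themselves spanned 2.75-fold, and the means of 39730 ± 15900 and 60296 ± 20000 differed by a log2 fold change of 0.62 (95% interval -0.15 to 1.38). This difference did not pass the limma test (adjusted p = 0.32), and the exact two-sided permutation test over the 70 arrangements of 4 against 4 gave p = 0.23. Bhmt is at chr13:93616675-93637961 (GRCm38, minus strand) and shares 41.9% of its 100-base windows with other annotated genes, chiefly Gm5096 and Bhmt-ps1. Their counts were 0.389% and 0.0451% of that of Bhmt.

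Bhmt2, the neighbouring paralogue (chr13:93655720-93674302), uses S-methylmethionine as its methyl donor. Its counts of 3045, 3354, 2763 and 3409 in Con-Veh and 2465, 3405, 3350 and 3831 in Con-DHT placed the lowest and the highest of the 8 livers both in Con-DHT. The log2 fold change was 0.04 (95% interval -0.25 to 0.33, limma adjusted p = 0.89), with means of 3143 ± 299 and 3262 ± 574. Per kilobase of exon, the ratio of Bhmt to Bhmt2, which does not depend on library scaling, was 4.81, 5.58, 3.35 and 7.47 in Con-Veh and 5.44, 7.88, 9.36 and 8.29 in Con-DHT. The ratios overlapped between the groups through Con-DHT replicate 1 and Con-Veh replicates 2 and 4. This ratio and the others given here were chosen after the values were seen and were not tested.

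Transsulfuration begins with Cbs, cystathionine beta-synthase. Cbs read 12676, 9217, 7393 and 9989 in Con-Veh and 7883, 7499.9, 9415 and 7972 in Con-DHT, and all 4 Con-DHT livers fell inside the Con-Veh range. Each of them was below the Con-Veh median. The means of 9819 ± 2190 and 8193 ± 840 gave a log2 fold change of -0.24 (95% interval -0.57 to 0.09, limma adjusted p = 0.38). Cth, cystathionine gamma-lyase, makes cysteine from cystathionine, and its counts were 4671, 4051, 3996 and 5669 in Con-Veh and 3668, 5294, 7851 and 5149 in Con-DHT. Con-DHT replicate 3 was the highest and replicate 1 the lowest of all livers for Cth. The Cth means of 4597 ± 778 and 5491 ± 1740 differed by a log2 fold change of 0.22 (95% interval -0.23 to 0.67, limma adjusted p = 0.57). Cbs is at chr17:31608894-31637238 and Cth at chr3:157894248-157925077, both on the minus strand of GRCm38.

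Pemt, phosphatidylethanolamine N-methyltransferase, makes phosphatidylcholine by methylating phosphatidylethanolamine with SAM. Its normalized counts were 3830.0, 3975, 3671 and 3550.1 in Con-Veh replicates 1 to 4 and 2687, 2930.3, 3377 and 3100.2 in Con-DHT replicates 1 to 4. Every Con-DHT liver was below every Con-Veh liver, and the gap between the groups lay between Con-DHT replicate 3 and Con-Veh replicate 4. The mean fell from 3757 ± 186 to 3024 ± 290, which is -19.5%. On the log2 scale the fold change was -0.32 (SE 0.08, 95% confidence interval -0.50 to -0.13). The limma adjusted p was 0.046 and the exact two-sided permutation p was 0.029, the smallest that 4 against 4 allows.

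The fall of Pemt was small and its adjusted p close to the threshold. It was lower under all 22 other settings and passed the threshold in 6 of the 14 that were not single left-out libraries, with DESeq2 on the recovered reads giving an adjusted p of 0.01 and edgeR 0.062. The other passes were array weights, both other pseudocounts, no filter on low values and the fit without Con-DHT replicates 3 and 4. The pseudocount and filter settings hardly change the main fit (limma adjusted p 0.0452 to 0.0472). The fit without Con-DHT replicates 3 and 4 was added after the values were seen and leaves out the highest Pemt of that group. DESeq2 called 11% and edgeR 7.15% of all tested genes. Pemt stayed past the threshold when Con-DHT replicate 3, the highest of its group, was left out (log2 fold change -0.37, limma adjusted p = 0.031). Without any other single library it lost the call (limma adjusted p from 0.072 to 0.123). Scaling the libraries by the spike-in RNA raised the median of all genes to 0.19 and moved Pemt to -0.12 (SE 0.30, limma adjusted p = 0.95). Relative to the median of all genes Pemt stood at -0.31 with either scaling. The scaling shifts the log2 fold changes of all genes nearly alike, so that this equality was fixed in advance and is no support. The lower Kupffer and endothelial marker sums of the Con-DHT livers moved in the same direction as Pemt, and their part in it was not tested.

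**Figure D2:**
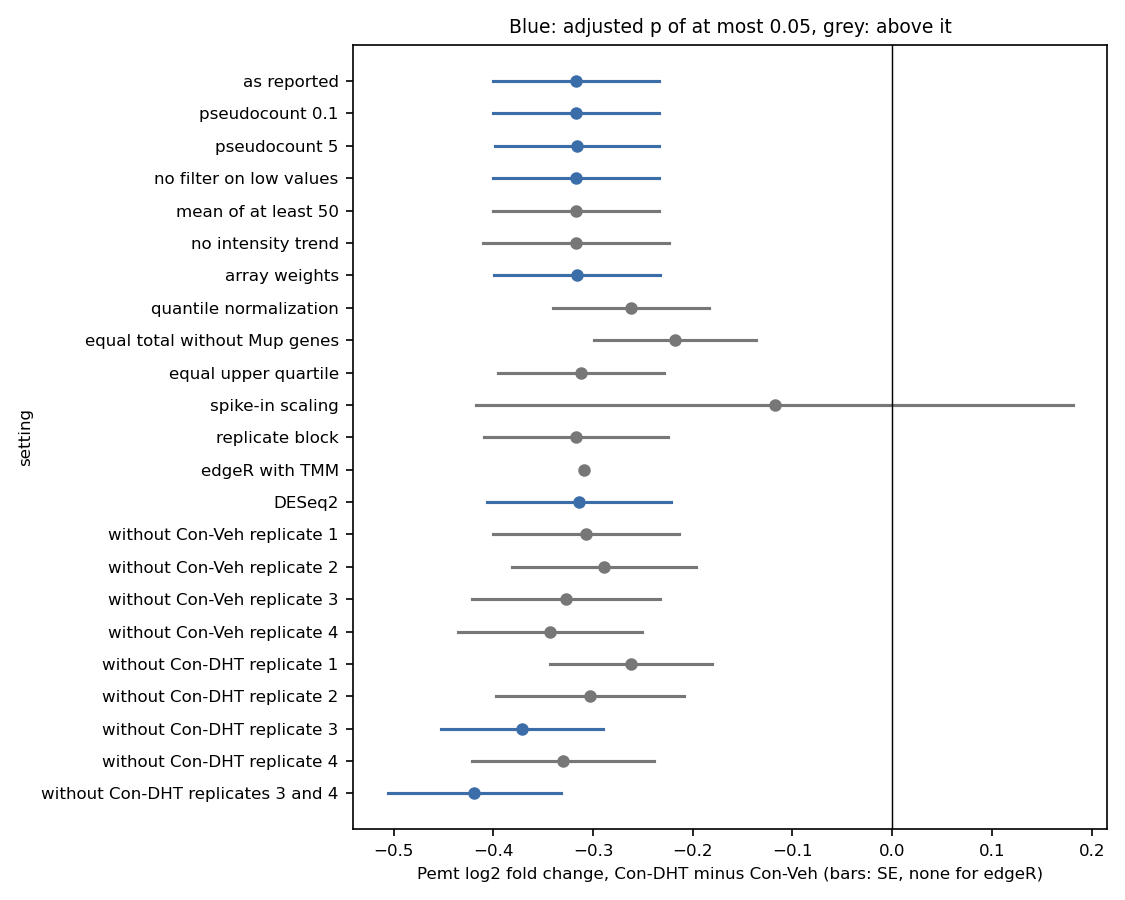
Log2 fold change of Pemt (Con-DHT over Con-Veh, bars are the SE) as reported and under 22 other settings of scaling, filter, tool and library choice. All points are below 0, from -0.42 to -0.12, and the blue points have an adjusted p of at most 0.05.

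Pemt lies at chr11:59970614-60046489 (GRCm38, minus strand), and its transcript shares no 100-base window with another annotated gene. RefSeq (GRCm38.p6) places starts inside this span, and the 250 bases before 2 of them are shown because Pemt was the called member and the study is concerned with the growth hormone and STAT5 axis. They were searched for TTCNNNGAA, the general form of a STAT5-type site, which reads the same on both strands. The 250 bases before the first start (chr11:60037006-60037255, minus strand) held no match, and those before the second (chr11:60040189-60040438, minus strand) held 1, at position -23 from the start. Both are printed 5′ to 3′ on the strand of the gene, with the match in capitals.
Pemt start 1: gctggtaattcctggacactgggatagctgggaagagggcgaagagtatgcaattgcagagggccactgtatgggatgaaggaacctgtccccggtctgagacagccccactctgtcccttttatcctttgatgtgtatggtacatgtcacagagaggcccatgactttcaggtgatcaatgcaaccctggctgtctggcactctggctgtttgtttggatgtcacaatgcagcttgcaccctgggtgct
Pemt start 2: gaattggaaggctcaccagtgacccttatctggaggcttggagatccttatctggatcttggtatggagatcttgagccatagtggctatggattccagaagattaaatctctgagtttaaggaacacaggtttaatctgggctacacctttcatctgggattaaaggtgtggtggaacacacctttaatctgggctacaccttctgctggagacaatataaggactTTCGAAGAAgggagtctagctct
Of all 32536 promoters of this length, 7.04% held the motif, and of 27025 genes 8.13% had it before at least 1 start. It was found for 1 of the 6 members with a promoter entry. Mat1a, Cth and Nnmt had no entry. A match is only a run of letters, and no binding was measured.

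The 3 genes of the whole table whose pattern over the 8 livers was closest to Pemt were Rab10os, Mvp and Ctsa, with root-mean-square differences of 0.0513, 0.0547 and 0.0597 on the log2 scale centred on the Con-Veh mean. Ctsa, the lysosomal protective protein cathepsin A, had means of 3576 ± 141 and 2927 ± 241 (limma adjusted p = 0.045). The other two fell short of the threshold, with a limma adjusted p of 0.06 for Mvp, the major vault protein, and 0.077 for Rab10os.

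Nnmt, nicotinamide N-methyltransferase, uses SAM to methylate nicotinamide and is expressed in both liver and adipose tissue. Its counts were 3292, 2197, 1324 and 1437 in Con-Veh and 140.3, 485.8, 2441 and 976 in Con-DHT. Con-DHT replicates 1, 2 and 4 were below all Con-Veh livers, and replicate 3 was above 3 of the 4. The means were 2062 ± 907 and 1011 ± 1010, and the log2 fold change of -1.60 had an SE of 0.71 and a 95% interval from -3.17 to -0.03. With an unadjusted p of 0.047 the limma adjusted p was 0.21, and the exact permutation p was 0.14. DESeq2 gave -1.03 with an adjusted p of 0.5.

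Of the members, Nnmt varied most among the Con-DHT livers (a coefficient of variation of 100%), and the same livers differed in adipocyte transcripts. The 6 adipocyte markers, all present in the table, summed to between 1255 and 1859 in Con-Veh and to 1533, 1705, 3612 and 4406 in Con-DHT replicates 1 to 4, with 0 of the 6 called and 1 (Fabp4) at an unadjusted p of at most 0.05 in limma, and with 0 called and 3 at that unadjusted p in both edgeR and DESeq2. The markers did not all move together. Adipoq, Cfd, Retn and Fabp4 were higher in Con-DHT replicates 3 and 4 than in replicates 1 and 2. Plin1 (67.4) and Lep (1.02) were instead lowest of the group in replicate 3 and highest in replicate 4 (172 and 30.4). Con-DHT replicates 3 and 4, with the highest marker sums, also had the highest Nnmt of their group. Between those livers the order differed, with Nnmt at 2441 and 976 and marker sums at 3612 and 4406. Without replicate 3 the log2 fold change of Nnmt was -2.25 (limma adjusted p = 0.052), and without replicates 3 and 4 together, an alternative added after the values were seen, it was -2.88 (limma adjusted p = 0.025). Leaving out the highest Nnmt of the group enlarges the fall by construction, so that this call is no support of its own. Without Con-DHT replicate 1 the log2 fold change of Nnmt was -0.87 (limma adjusted p = 0.37). Under spike-in scaling, where limma took the variance of each gene from the trend alone and called 4.45% of all tested genes, Nnmt stood at -1.40 with an adjusted p of 0.00013. The part of adipocyte RNA in these values was not tested. Nnmt is at chr9:48591877-48605153 (GRCm38, minus strand).

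**Figure D3:**
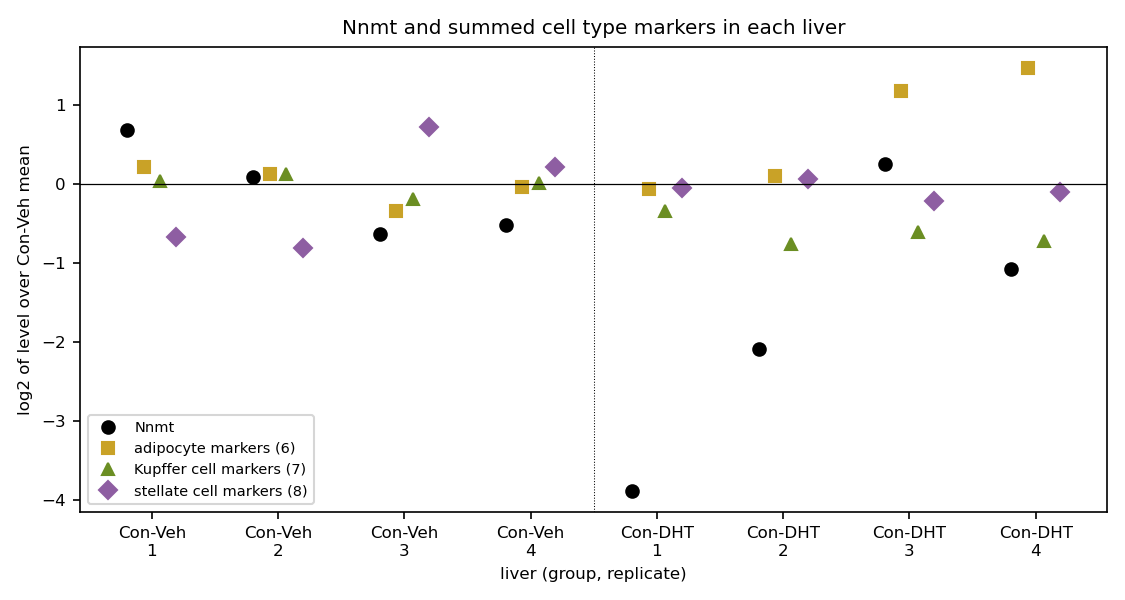
Level of Nnmt and summed adipocyte, Kupffer cell and stellate cell markers in each liver, as log2 of the value over the Con-Veh mean. Nnmt was lowest in Con-DHT replicates 1 and 2 and the adipocyte marker sum was highest in Con-DHT replicates 3 and 4. The Kupffer cell marker sum was below the Con-Veh range in all Con-DHT livers.

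Several members shared the livers in which they were lowest and highest. Con-DHT replicate 1 was the lowest of its group for 7 of the 9 members (Bhmt, Bhmt2, Mat1a, Ahcy, Pemt, Cth and Nnmt), whereas it was the lowest for 23.2% of all tested genes. Con-DHT replicate 3 was the highest of its group for 6 of the 9, against 23.7% of all tested genes. In Con-Veh, replicate 3 was the lowest for 6 members and replicate 4 the highest for 5, against 26.5% and 22.2% of all tested genes. These counts describe the livers and were not tested.

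Of 114 further genes in 8 lists around the members, 110 were in the table and were tested, and 15 of them (13.6%) were called, 8 higher and 7 lower, beside 7.21% of all tested genes. In each of the 15 the groups did not overlap, and the exact permutation p was 0.029, its smallest possible value. These genes were picked by their limma p from the same livers, so that this is no support of its own. Of all 110, 11 had every Con-DHT liver above every Con-Veh liver and 11 had every one below. The shares of all tested genes were 8.49% and 6.62%. The median log2 fold change over the 110 genes was -0.04. Without Con-DHT replicates 3 and 4, a choice made after the values were seen, 6 of the 110 were called. They were Chka, Cept1, Gpcpd1, Aox3, Tpmt and Csad, 5.45% of the 110 beside 3.32% of all tested genes. Under spike-in scaling 4 were called (Mthfd2, Gpcpd1, Aox3 and Tpmt), which is 3.64% beside 4.45% of all tested genes, so that the list share was then not above that of all genes. The lower Kupffer and endothelial marker sums and the adipocyte marker sums of Con-DHT replicates 3 and 4 stand beside all of these values, and their part was not tested. The 4 genes not in the table were Aldh1l2, Slc44a4, Enpp6 and Pnmt.

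**Figure D4:**
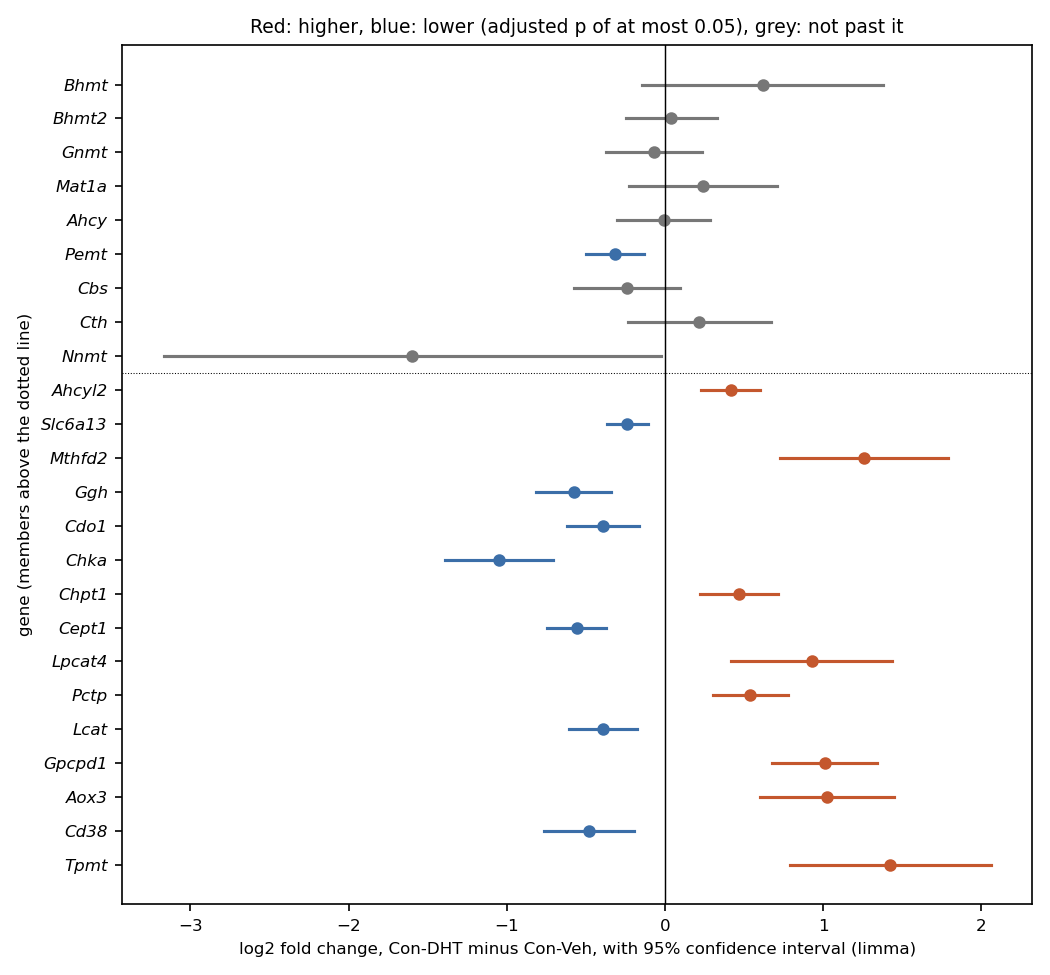
Log2 fold change (Con-DHT over Con-Veh) with its 95% confidence interval from limma for the 9 members, above the dotted line, and the 15 called genes of the surrounding lists. Among the members only the interval of Pemt is coloured as called, at -0.32, and the listed genes run from Chka at -1.05 to Tpmt at 1.42.

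The list of CDP-choline and CDP-ethanolamine synthesis had 3 of 16 genes called, which is 18.8% beside 7.21% of all tested genes. Of these, 1 was higher and 2 lower, all of them on the choline side or shared by both. Chka, choline kinase alpha, phosphorylates choline in the first step. Its counts were 1615, 1161, 1014 and 1389.9 in Con-Veh and 576, 524, 631 and 761 in Con-DHT, so that the highest Con-DHT liver was below the lowest Con-Veh liver. Group means were 1295 ± 263 and 623 ± 102, and Chka fell by 1.05 on the log2 scale (SE 0.15, limma adjusted p = 0.0034). The call held in all 8 fits that left out 1 library and in 13 of the 14 other settings. Per kilobase, the ratio of Chka to Chkb, the other choline kinase gene, was 0.207 to 0.338 in Con-Veh and 0.111 to 0.136 in Con-DHT, without overlap. Chkb itself had a log2 fold change of 0.04 (limma adjusted p = 0.81).

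The last step of the choline route joins phosphocholine to diacylglycerol and has 2 enzymes, Chpt1, which is specific for choline, and Cept1, which takes choline and ethanolamine. Chpt1 read 1867, 2355, 2230.1 and 2422 in Con-Veh and 2819.6, 3584, 3172 and 2694 in Con-DHT. Cept1 read 1042, 1079, 1167 and 1268 in Con-Veh and 773, 702, 829.75 and 784 in Con-DHT. The former rose with a log2 fold change of 0.47 (SE 0.11, limma adjusted p = 0.032) and the latter fell with -0.56 (SE 0.08, limma adjusted p = 0.0038). The Chpt1 call held without Con-Veh replicate 4 or Con-DHT replicate 4 and was lost without any of the other 6 livers (limma adjusted p 0.0516 to 0.0789), and the Cept1 call held in all 8 such fits. Per kilobase, the ratio of Chpt1 to Cept1 was 0.671, 0.817, 0.715 and 0.715 in Con-Veh and 1.365, 1.91, 1.43 and 1.29 in Con-DHT. The ratio was higher in each Con-DHT liver than in every Con-Veh liver, while its size depends on the exon lengths taken for the 2 genes. On the opposite strand, Dennd2d overlaps 24.7% of the exon bases of Cept1. Dennd2d counted 119 and 125 on average in the groups, and whether the counting used strand is not given in the sources used here.

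Of the 16 genes of phosphatidylcholine remodelling, transfer and breakdown, 3 were called higher and 1 lower, which is 25% beside 7.21% of all tested genes. Gpcpd1, a glycerophosphocholine phosphodiesterase that releases choline at the end of phosphatidylcholine breakdown, read 1064, 1172, 1036 and 856 in Con-Veh and 2348, 2131, 1509.5 and 2406 in Con-DHT. It rose with a log2 fold change of 1.01 (SE 0.15, limma adjusted p = 0.0037), a call kept in all 22 other settings. Pctp, the phosphatidylcholine transfer protein, read 339.7, 374, 428 and 461 in Con-Veh and 597, 561, 528 and 635 in Con-DHT (log2 fold change 0.54, SE 0.11, limma adjusted p = 0.015). For both genes the lowest Con-DHT liver stood above the highest Con-Veh liver. Lpcat4, a lysophospholipid acyltransferase, rose from 29.99 ± 8.98 to 56.3 ± 6.01 (log2 fold change 0.93, limma adjusted p = 0.036). Lcat, the secreted enzyme that moves an acyl chain from phosphatidylcholine to cholesterol, fell from 9292 ± 873 to 7075 ± 629 (log2 fold change -0.39, limma adjusted p = 0.036). With 1 liver left out, the call of Lpcat4 held without Con-Veh replicate 3 and was lost without any other (limma adjusted p 0.0564 to 0.0928). That of Lcat held without Con-DHT replicate 3 and was lost without any other (0.0509 to 0.101).

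**Figure D5:**
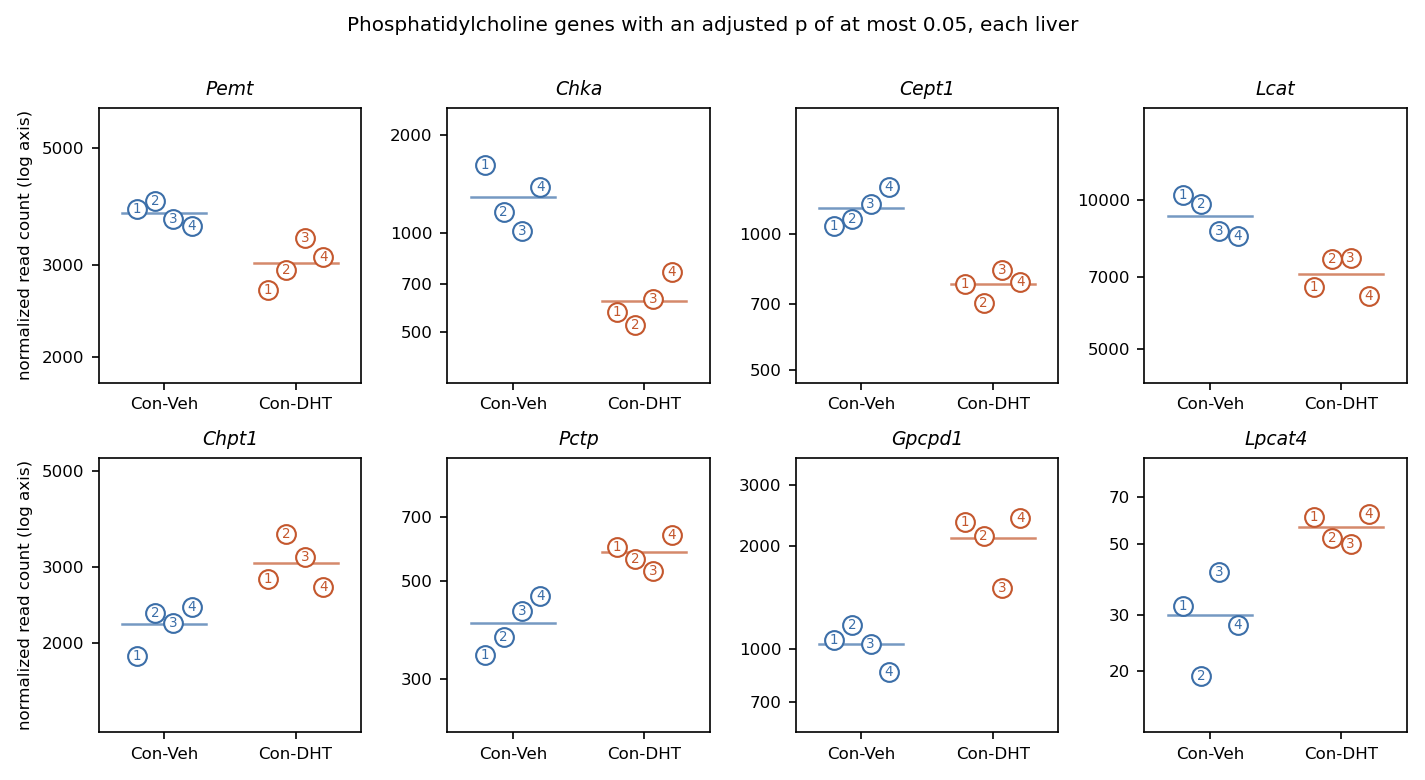
Normalized read counts (log axis, scaled separately for each gene) in each liver for Pemt and the 7 called genes of phosphatidylcholine synthesis, remodelling, transfer and breakdown. Circles carry the replicate number and lines are group means. Pemt, Chka, Cept1 and Lcat were lower and Chpt1, Pctp, Gpcpd1 and Lpcat4 higher in every Con-DHT liver than in every Con-Veh liver.

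Around the methionine cycle, 1 of 15 further genes was called, which is 6.67% beside 7.21% of all tested genes. Ahcyl2, an AHCY-like protein, read 302.3, 297, 268 and 304 in Con-Veh and 360.1, 389.99, 385 and 428 in Con-DHT (log2 fold change 0.41, SE 0.08, limma adjusted p = 0.017). All Con-DHT livers were above the Con-Veh range. It was also the sole called list gene of 12 with a promoter entry that held TTCNNNGAA, which is 8.33% beside 8.13% of all genes. The match lay before its second start at chr6:29853491-29853740 (GRCm38.p6, plus strand), 144 bases ahead of it. The windows before its starts 1 and 3 held none. The window before start 2 is shown as for Pemt, with the match in capitals.
Ahcyl2 start 2: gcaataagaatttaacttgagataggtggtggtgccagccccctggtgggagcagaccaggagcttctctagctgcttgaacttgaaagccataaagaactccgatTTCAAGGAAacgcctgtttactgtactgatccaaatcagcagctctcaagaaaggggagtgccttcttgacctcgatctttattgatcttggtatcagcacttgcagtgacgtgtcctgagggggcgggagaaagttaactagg

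In betaine and sarcosine oxidation, 1 of 7 genes was called, which is 14.3% beside 7.21% of all tested genes. Slc6a13, a carrier of GABA and taurine in hepatocytes, fell from 3626 ± 75.5 to 3075 ± 15.3 (log2 fold change -0.24, SE 0.06, limma adjusted p = 0.036), and its 4 Con-DHT values lay between 3058 and 3095. The call was lost without any 1 of the 8 livers (limma adjusted p 0.0633 to 0.0966). The other 6 genes did not pass and had changes of both signs. The log2 fold changes were 0.26 for Chdh, 0.29 for Aldh7a1, 0.43 for Dmgdh and 0.19 for Sardh, with limma adjusted p of 0.16, 0.16, 0.077 and 0.51. They were -0.29 for Pipox and -0.13 for Slc6a12, with limma adjusted p of 0.12 and 0.32.

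In folate one-carbon metabolism, 2 of 19 genes were called, which is 10.5% beside 7.21% of all tested genes. Mthfd2, the mitochondrial methylenetetrahydrofolate dehydrogenase, counted 41.8, 37.6, 22.0 and 29.6 in Con-Veh and 70.6, 93.9, 58.2 and 93.5 in Con-DHT. It rose with a log2 fold change of 1.26 (SE 0.24, limma adjusted p = 0.012). Ggh, the lysosomal hydrolase that trims the glutamate tail of folates, counted 236, 262, 228 and 224 in Con-Veh and 173, 136, 157 and 169.6 in Con-DHT. It fell with a log2 fold change of -0.58 (SE 0.11, limma adjusted p = 0.01). Both calls held in all 8 fits without a library. The glycine decarboxylase gene Gldc had a log2 fold change of -0.64 that did not pass (limma adjusted p = 0.064).

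Beyond transsulfuration, 1 of 12 genes of cysteine, taurine, sulfide and glutathione metabolism was called, which is 8.33% beside 7.21% of all tested genes. Cdo1, cysteine dioxygenase, which starts the path from cysteine to taurine, counted 29006, 29074, 26762 and 30240 in Con-Veh and 19402, 23764, 22255 and 22372 in Con-DHT. The mean fell from 28770 ± 1450 to 21948 ± 1830 (log2 fold change -0.39, SE 0.10, limma adjusted p = 0.047), and the call was lost without any 1 of the 8 livers (limma adjusted p 0.0667 to 0.118). Csad, the next enzyme towards taurine, was at -0.71 and did not pass (limma adjusted p = 0.18). Without Con-DHT replicates 3 and 4, a choice made after the values were seen, Csad was at -1.18 (limma adjusted p = 0.00466). Those livers held the highest Csad of their group (2762 and 5906, beside 2111 and 2043), so that leaving them out enlarges the fall.

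Beside Nnmt, 2 of 13 genes of nicotinamide and NAD salvage were called, which is 15.4% against 7.21% of all tested genes. Aox3, a hepatic aldehyde oxidase that can oxidise the methylated nicotinamide made by NNMT, read 3124, 3754, 3058 and 3439.5 in Con-Veh and 10603, 6314, 5068 and 6228 in Con-DHT. It rose with a log2 fold change of 1.02 (SE 0.19, limma adjusted p = 0.011), and the highest value was in Con-DHT replicate 1, the liver with the lowest Nnmt. Cd38, an NAD glycohydrolase, fell from 166 ± 19.5 to 118 ± 12.5 (log2 fold change -0.48, SE 0.13, limma adjusted p = 0.049), and its call held without Con-Veh replicate 4 and was lost without any other liver (limma adjusted p 0.0731 to 0.122). Cd38 is also expressed by immune cells, and the lower Kupffer cell marker sums in Con-DHT moved with it. Their part in its fall was not tested.

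Among 12 other methyltransferases and enzymes that serve small molecules, only Tpmt was called, which is 8.33% beside 7.21% of all tested genes. Tpmt, thiopurine S-methyltransferase, counted 204, 382, 141 and 189.7 in Con-Veh and 548, 865, 485 and 476 in Con-DHT. It rose with a log2 fold change of 1.42 (SE 0.29, limma adjusted p = 0.015), and the call was kept in all 22 other settings. The pseudogene Gm18807, not in the table, overlaps 17.4% of its exon bases on the opposite strand.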

How the data were processed

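The authors made libraries from total RNA with ERCC spike-ins. Per the study's methods and the labels, they trimmed reads with Trimmomatic, aligned them with STAR, counted uniquely mapped exon reads with featureCounts (Subread) and used DESeq2. The processing notes name build GRCm39. The deposited values are a normalized signal, read counts divided by 1 DESeq2 size factor per library, and 100% of them came out as whole reads (tolerance 0.001). No feature had fewer than 81 reads over the 8 libraries.

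Groups and replicate numbers came from the labels, which number the livers without naming animals, so that the p-values measure the spread between these samples. The main test was limma 3.58.1 (lmFit, eBayes with trend, R 4.3.3) on log2(value + 1) for 14312 genes with a mean of at least 10, unpaired, with Benjamini-Hochberg adjustment. The pseudocount shrinks the folds of low genes. Alternatives were other pseudocounts, filters and scalings, array weights, a replicate block, edgeR 4.0.16 (1024 genes called) and DESeq2 1.42.0 (1569 called) on the recovered reads, and leaving out each library. The members and lists were chosen with earlier results of these data known. The text names all members, each called list gene, and the 3 genes closest to the member with the smallest adjusted p. Genes named with an adjusted p above 0.05 outside the members (Chdh, Aldh7a1, Dmgdh, Sardh, Pipox, Slc6a12, Gldc, Csad, Etnk1, Etnk2, Pcyt2, Selenoi, Ptdss1, Ptdss2, Pisd, Pnpla7, Nmnat2, Naprt), Chkb and partner genes were chosen after their values were seen. On simulated data for Con-DHT against Con-Veh with 14157 genes tested, limma found 16.3% of genes changed by 0.5 on the log2 scale, 55.1% of those changed by 1 and 95.8% of those changed by 2, and 3.68% of its 136 calls were false. Libraries of a group were checked for duplicates, with a chi-square per degree of freedom of at least 19.1 in all 12 pairs. Coordinates are from GENCODE M21 (GRCm38) and the promoters from RefSeq (GRCm38.p6). They were used for names and places, not for the counts. Python 3.11.15, pandas 2.3.3, scipy 1.17.1 and matplotlib 3.10.9 were used for the rest.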

Additional observations from a re-analysis of the deposited data

Results flagged for a closer look

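Of 48 groups of 4 livers, 1 for each of the 9 members and 15 called list genes in each treatment, 2 held a value set apart from the other three by Dixon's test, and chance alone sets apart about 1 in 20 groups. Ahcyl2 in Con-Veh replicate 3 was 267.54, below 297 to 304 in the other Con-Veh livers, with a gap of 0.83 of the range of the group. Cd38 in Con-DHT replicate 4 was 100.01, below 123 to 128 in the other Con-DHT livers, with a gap of 0.848 of the range. Without Con-Veh replicate 3 Ahcyl2 was still called, and without Con-DHT replicate 4 Cd38 had a log2 fold change of -0.40 (limma adjusted p = 0.105). No member was set apart in this way, the low Nnmt of Con-DHT replicate 1 included.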

How the results depend on the processing

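Over 22 other settings, 527 values of the 24 genes were computed: 410 kept direction and side of the threshold, 100 kept direction but lost the call, 2 gained a call (Nnmt, under spike-in scaling and without Con-DHT replicates 3 and 4) and 15 changed sign, none of them a called gene. All genes called were 1032, and 648 with a mean of at least 50 (fewer genes tested), 637 under spike-in scaling, 1569 with DESeq2, 633 to 905 without 1 library, and 475 without Con-DHT replicates 3 and 4, a choice made after the data were seen. Members called were 1, and 0 with a mean of at least 50, no intensity trend, quantile normalization, equal total without Mup genes, equal upper quartile, edgeR and the replicate block, 0 to 1 without 1 library and 2 without Con-DHT replicates 3 and 4. Pemt had an adjusted p of 0.0543, 0.0935, 0.0768, 0.121, 0.0503, 0.062 and 0.101 in these settings with 0, and under spike-in scaling the 1 member called was Nnmt (Pemt 0.947). Other list genes called were 15, and 4 under spike-in scaling, 9 to 11 without 1 library and 6 without Con-DHT replicates 3 and 4. Con-DHT replicates 3 and 4 held the highest Nnmt and the highest Pemt of their group, so that leaving them out enlarges both falls. The cause of the changed counts was not tested. The share of calls that were higher was 63.8%, 83.9% with equal total without Mup genes and 88.2% under spike-in scaling.

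The small difference of Ahcy turned positive with array weights (0.001), quantile normalization (0.112), equal total without Mup genes (0.092), spike-in scaling (0.192) and without Con-Veh replicate 3 or 4 or Con-DHT replicate 1 or 4, over a range without 1 library of -0.066 to 0.069. Gnmt turned to 0.029 with equal total without Mup genes and 0.13 under spike-in scaling. Bhmt2 turned negative without Con-Veh replicate 3 or Con-DHT replicate 4, over a range without 1 library of -0.043 to 0.169, and was -0.113 without Con-DHT replicates 3 and 4, where Mat1a (-0.058) and Cth (-0.046) also turned.

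The values gave no sign that the replicate numbers pair the livers. Deviations of same-numbered livers correlated between -0.186 and -0.006, and 0 Con-Veh libraries correlated best with their own number. Whether same-numbered animals were paired in the design cannot be told from this. With the number as a replicate block, limma called 700 genes, 0 members and 12 list genes. Changes of the size of Pemt lie below the 0.5 on the log2 scale of which limma found 16.3% on simulated data. The simulation changed fewer genes (136 limma calls there, 1032 here), drawn at random over expression levels. The 16.3% is thus not the rate at which a change like that of Pemt would be found.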

Other observations

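Of the genes that make phosphatidylethanolamine and phosphatidylserine, Etnk1 and Ptdss1 had groups without overlap, as did 15.1% of all tested genes, and neither passed the threshold. Etnk1, ethanolamine kinase, was higher in all Con-DHT livers than in any Con-Veh liver (1027 and 1248 on average, log2 fold change 0.28, limma adjusted p = 0.09). Ptdss1, phosphatidylserine synthase, was lower in all of them (941 and 796, log2 fold change -0.25, limma adjusted p = 0.11). The other genes of these steps, Etnk2, Pcyt2, Selenoi, Ptdss2 and Pisd, had log2 fold changes of 0.03, 0.13, -0.03, 0.10 and 0.05 (limma adjusted p from 0.42 to 0.94). Pnpla7, a lysophospholipase, was at 0.43 (limma adjusted p = 0.091) with overlap between the groups. In NAD synthesis, Nmnat2 was higher without overlap (18.1 and 33.7, log2 fold change 0.84, limma adjusted p = 0.053), and Naprt was lower without overlap (3309 and 2632, log2 fold change -0.33, limma adjusted p = 0.084).

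The form of methionine adenosyltransferase found in most tissues is encoded by Mat2a. Per kilobase, the ratio of Mat1a to Mat2a was 65.4, 54.8, 66.4 and 65.7 in Con-Veh and 58.8, 73.7, 104 and 110.0 in Con-DHT. Con-DHT replicates 2, 3 and 4 were above the Con-Veh range and replicate 1 was within it. The ratio of Cth to Cbs per kilobase was 0.988, 1.18, 1.45 and 1.52 in Con-Veh and 1.25, 1.89, 2.24 and 1.73 in Con-DHT, with the same 3 Con-DHT livers above the Con-Veh range. Neither ratio was tested.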
